A study of Drosophila melanogaster with 2 samples.

Results

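The Wingless pathway genes examined here are 10 of the 13945 protein-coding genes of Drosophila melanogaster, chosen by name: wg, fz, fz2, arr, dsh, Axn, sgg, arm, pan and nkd. They were proposed with earlier results of these data known, so their shares are not those of an unselected list. All 10 symbols matched a gene model, and each gene was described by every called region whose summit lay inside it or no more than 1 kb outside it. The regions came from chromatin immunoprecipitation followed by sequencing (ChIP-seq) of the transcription factor Eyeless, the fly Pax6 protein. The animals were a transgenic line that stably expresses ey with GFP fused to its C-terminal end, collected as whole wandering larvae of the third instar with males and females pooled. There was 1 group of 2 biological replicates, which carry the numbers 1 and 3. The labels describe precipitation with an antibody against GFP but enter ey in the antibody field, and they give sonication to 200 to 800 bp. No other genotype, tissue or stage was profiled, so no comparison of conditions and no test over samples was possible, and the shares below are descriptions. A whole larva mixes all its cell types, so fewer cells carrying the fusion protein at a site cannot be told apart from less binding per cell.

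Wingless is a secreted Wnt ligand. It is bound at the cell surface by the Frizzled and Frizzled 2 receptors and the co-receptor Arrow, and Dishevelled passes the signal on. Without the ligand, a destruction complex built on Axin phosphorylates Armadillo, the fly beta-catenin, through kinases that include Shaggy, the fly GSK3, and Armadillo is degraded. With the ligand, Armadillo accumulates and acts in the nucleus with Pangolin, the fly TCF, while Naked cuticle is an inducible feedback inhibitor that acts on Dishevelled. In the eye-antennal disc of the larva, wg is expressed at the margins and is known to oppose eye fate, the fate that ey promotes.

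The DNA under the summits is shown first. It was mostly AT-rich, as at called regions in general, and few windows held a searched motif. Each line gives the 101 bp centred on a summit in the dm6 build (Release 6 sequence), plus strand, with runs of 8 or more A or T bases in capitals. The rank is the place of the region in the authors' list thresholded on reproducibility, termed optimal. It runs from 1 for the highest signal to 6835 for the lowest. The first 4 lines are strong regions, and the line for fz2 at rank 1192 and that for sgg hold the 2 TCF core matches found. The nkd line has the lowest GC content of all regions at these genes (22.8%), and the last line is the strongest region of wg, which did not reach the optimal list.
sgg, internal promoter, rank 118, chrX:2646366-2646466: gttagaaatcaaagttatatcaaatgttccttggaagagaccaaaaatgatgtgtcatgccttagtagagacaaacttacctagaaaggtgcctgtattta
fz, intron 1, rank 214, chr3L:14304020-14304120: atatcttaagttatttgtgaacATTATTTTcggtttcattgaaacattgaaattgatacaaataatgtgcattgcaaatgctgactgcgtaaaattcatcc
fz, intron 4, rank 435, chr3L:14364857-14364957: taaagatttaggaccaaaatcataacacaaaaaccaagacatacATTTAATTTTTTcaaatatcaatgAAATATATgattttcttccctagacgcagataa
fz2, intron 2, rank 836, chr3L:19160049-19160149: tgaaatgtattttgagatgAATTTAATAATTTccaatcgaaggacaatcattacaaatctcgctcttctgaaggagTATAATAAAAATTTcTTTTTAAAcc
fz2, long intron, rank 1192, chr3L:19194207-19194307: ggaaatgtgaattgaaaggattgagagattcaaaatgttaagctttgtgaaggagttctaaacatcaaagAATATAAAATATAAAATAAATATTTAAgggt
nkd, intron 1, rank 3010, chr3L:19016616-19016716: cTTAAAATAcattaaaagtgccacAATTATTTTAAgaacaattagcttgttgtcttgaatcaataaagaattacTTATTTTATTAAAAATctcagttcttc
arm, promoter, rank 4301, chrX:1900296-1900396: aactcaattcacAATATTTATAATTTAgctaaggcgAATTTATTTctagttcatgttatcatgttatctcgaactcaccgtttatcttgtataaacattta
wg, promoter, weak region, pooled rank 9996, chr2L:7306956-7307056: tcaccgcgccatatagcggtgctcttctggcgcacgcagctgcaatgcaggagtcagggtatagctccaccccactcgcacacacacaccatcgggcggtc

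Of the 10 genes, 6 had at least 1 optimal region and are called bound here: fz, fz2, arr, sgg, arm and nkd. That is 60.0% of them, and over all protein-coding genes the share was 34.1%. Among genes within 1.25-fold of each gene's length, the share bound was 34.8% at dsh and 72.7% at fz and fz2. For the others it ran from 49.0% (wg) to 59.6% (nkd), so 60.0% lies within the range at such lengths. The bound genes included the 3 receptor genes among the 10, the kinase gene sgg, arm and the feedback inhibitor nkd. The genes of the ligand (wg), of Dishevelled (dsh), of the scaffold Axin (Axn) and of the TCF factor (pan) had none. Together the 6 genes held 41 of the 6835 optimal regions, and 27 of the 41 lay at the 3 receptor genes. The pooled list was called on both replicates together and is labelled by the authors as peaks and background. It reaches down to a signal of 15.4, so its weak regions may be background. In it, all 10 genes had a region, as did 63.4% of all protein-coding genes. A count of 5 or more optimal regions was found at 5 of the 10 genes and at 1.78% of all genes. An optimal region within 1 kb of one of the gene's own transcription start sites (TSSs) was found at 4 of the 10 (arm, nkd, arr and sgg) and at 26.8% of all genes.

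The genes are long, and long genes were bound more often. Their median length was 35.6 kb, against 2.17 kb for all protein-coding genes. The share of genes bound was 27.5% of the 10461 shorter than 5000 bp and 72.9% of the 133 of 80000 bp or longer. Set beside genes of similar length, within 1.25-fold, the receptor genes fz (94.3 kb) and fz2 (94.4 kb) had 11 and 9 optimal regions, where the median of 88 similar genes was 2. As many regions as fz or more were found at 11.4% of those genes, and as many as fz2 at 14.8%. The co-receptor gene arr (29.6 kb) had 7 regions, where the median of 348 similar genes was 1 and 4.31% had as many. The feedback gene nkd (41.7 kb) also had 7, a count reached by 9.76% of 287 similar genes. For sgg (45.6 kb, 5 regions) the share with as many was 20.6%, and for arm (9.25 kb, 2 regions) it was 22.1%, so these 2 counts were common at such lengths. In all, 28 genes of the genome had at least as many optimal regions as fz. Over the sequence of the 10 genes with their flanks, 404 kb in all, optimal regions numbered 1.01 per 10 kb, against 0.585 per 10 kb over all protein-coding genes with their flanks.

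**Figure D1:**
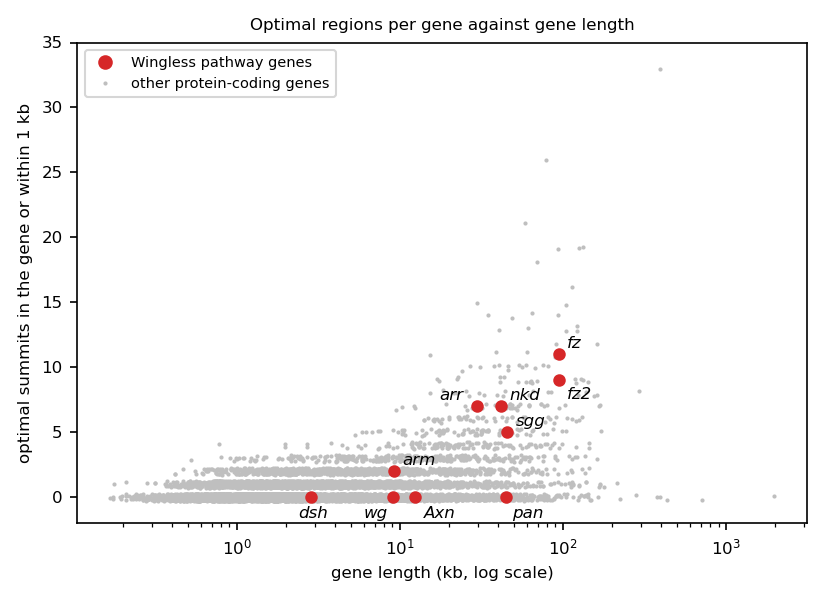
Optimal summits per gene (vertical axis) against gene length in kb (horizontal axis, log scale). Red points are the 10 Wingless pathway genes and grey points all other protein-coding genes, moved slightly up or down to show overlap. The points of fz, fz2, arr and nkd lie at 7 to 11 regions, in the upper part of the cloud at their lengths, and dsh, wg, Axn and pan lie at 0.

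At fz, which encodes a Wingless receptor that also directs planar cell polarity, the 11 regions were all intronic and spread over 67.3 kb. The gene has 1 TSS and 2 transcripts, and its nearest region lay 23.2 kb downstream of that TSS. The strongest (chr3L:14303865-14304245, intron 1, 29.7 kb from the TSS) had rank 214 and a pooled signal of 794. It ranked 191 in replicate 1 and 235 in replicate 3, with signals of 448 and 365 in those lists, and the summits of both replicates fell on the same base. The next (chr3L:14364696-14365100, in the last intron, 90.6 kb from the TSS) had rank 435, and ranked 361 in replicate 1 and 516 in replicate 3. Both were thus strong in either replicate. The third (chr3L:14338984-14339203, rank 1595) ranked 1442 in replicate 1 and 1930 in replicate 3. The other 8 had ranks from 2125 to 6337, with a group of 3 between 76.0 and 76.7 kb from the TSS. Of these 8, the regions at ranks 2125 and 3937 overlapped, as did those at ranks 2609 and 5603. Each pair matched the same single region in either replicate. The small gene CG13482 lies inside fz and CG13481 past its end, and for 9 of the 11 regions the nearest TSS was that of CG13481 or CG13482. The weakest region, rank 6337, lay 640 bp from the TSS of CG13482. Distance does not show on which gene a region acts.

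The gene of the other Wingless receptor, fz2, carried 9 intronic regions over 42.0 kb. The strongest (chr3L:19159940-19160263, intron 2) had rank 836 and a pooled signal of 396, and ranked 851 in replicate 1 and 907 in replicate 3. It lay 10549 bp downstream of the TSS from which 5 of the 8 transcripts start. The regions at ranks 1132 (chr3L:19173110-19173413) and 1389 (chr3L:19172399-19172592) lay 2614 and 1889 bp upstream of this same TSS, inside an intron of the longer transcripts. They were strong in both lists, with ranks of 729 and 1639 in replicate 1 and of 1769 and 1470 in replicate 3. The region at rank 1192 (chr3L:19194090-19194427), 23609 bp upstream of this TSS, differed most between the replicates of all 41. It ranked 639 in replicate 1, with a signal of 253, and 3433 in replicate 3, with a signal of 70.5, a 5.37-fold difference in rank. The region at rank 1521 (chr3L:19166363-19166681), 4157 bp downstream of the TSS, was again strong in both, with ranks of 1303 in replicate 1 and 1995 in replicate 3. The remaining 4 had ranks from 4066 to 5653, and 2 of them were in the top-ranked list of 1 replicate alone. No optimal fz2 summit lay within 1 kb of a TSS of the gene, and a weak pooled region (chr3L:19171218-19171647, signal 58.1) lay 785 bp from one.

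The arr gene encodes the LRP co-receptor and lies on chromosome arm 2R, from 13453640 to 13483229. Its 7 regions spread over 21.0 kb. The strongest (chr2R:13466900-13467270, intron 2) had rank 379 and a pooled signal of 607, and ranked 290 in replicate 1 and 456 in replicate 3. Overlapping regions at ranks 879 (chr2R:13472365-13472639) and 967 (chr2R:13472613-13472847) followed in the same intron. In replicate 1 a single region, rank 796, overlapped both, while in replicate 3 they ranked 957 and 1283. The region at rank 2434 (chr2R:13476855-13477071) lay 378 bp from the TSS of CG43192, a gene nested in arr, and 6265 bp from the TSS of arr itself. Of the weaker regions, that at rank 5064 ranked 5555 in replicate 1 and 4168 in replicate 3, and that at rank 5135 ranked 7045 in replicate 1 and 4248 in replicate 3. At 832 bp from the arr TSS there was only a weak region, with rank 6241 (signal 86.6), and the promoter of arr, 34 bp from the TSS, had a pooled region with a signal of 72.2 that was below the optimal list. Only for the region at rank 6241 was the nearest protein-coding TSS that of arr. For the others it was that of CG43192, or of Golgin97 at rank 5064.

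The strongest region at any of these genes lay in sgg, which encodes the Shaggy kinase and has 19 transcripts from 11 TSSs. It had rank 118 and a pooled signal of 1009 (chrX:2646111-2646656). In replicate 1 it ranked 137 with a signal of 509, and in replicate 3 it ranked 117 with a signal of 510. The summit lay 221 bp upstream of an internal TSS at position 2646637 from which 1 of the 19 transcripts starts, 12.5 kb into the gene. Regions at ranks 924 and 2278 lay 926 and 1556 bp downstream of the same TSS, so that 3 regions grouped around it. They ranked 793 and 2044 in replicate 1, and 929 and 1552 in replicate 3. The other sgg regions, ranks 5845 and 6762, were weak, and only in replicate 3 were they among the 6835 highest signals, with ranks of 4834 and 5432 against 9346 and 7901 in replicate 1.

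At arm, which encodes beta-catenin, both regions were of moderate strength. The one in intron 2 (chrX:1897414-1897843) had rank 3196 and a pooled signal of 158, and ranked 4296 in replicate 1 and 2423 in replicate 3. The other (chrX:1900131-1900560, rank 4301, signal 124) had ranks of 4711 in replicate 1 and 5283 in replicate 3. Its summit lay inside the gene, 0.3 kb downstream of the first arm TSS. It was 173 bp upstream of a further arm TSS from which 1 of the 6 transcripts starts. The neighbouring gene Ldaf1 is within 1 kb of that summit, so the region may be counted for either gene.

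At nkd, itself known as a Wingless target gene, 6 of the 7 regions were in intron 1 and 1 was at the promoter. The intronic regions at ranks 1811 (chr3L:19042627-19042833, signal 236) and 1894 (chr3L:19041812-19042032, signal 229) lay 2685 and 3555 bp downstream of the TSS. The first ranked 1256 in replicate 1 and 3462 in replicate 3, and the second 1658 in replicate 1 and 2207 in replicate 3. A region at rank 2095 (chr3L:19024951-19025142) ranked nearly alike, with 2114 in replicate 1 and 2149 in replicate 3. The promoter region (chr3L:19045490-19045703, rank 2374, signal 198), 136 bp upstream of the only TSS, ranked 1848 in replicate 1 and 2940 in replicate 3. The remaining 3, at ranks 3010, 3837 and 5660, lay 28.8, 9.74 and 34.1 kb from the TSS. That at rank 3837 (chr3L:19035494-19035923) was the least alike between replicates, with rank 2502 in replicate 1 and 8144 in replicate 3. The signals of the 7 nkd regions ran from 95.3 to 236, and none was among the 683 strongest optimal regions, where sgg had 1, fz 2 and arr 1.

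**Figure D2:**
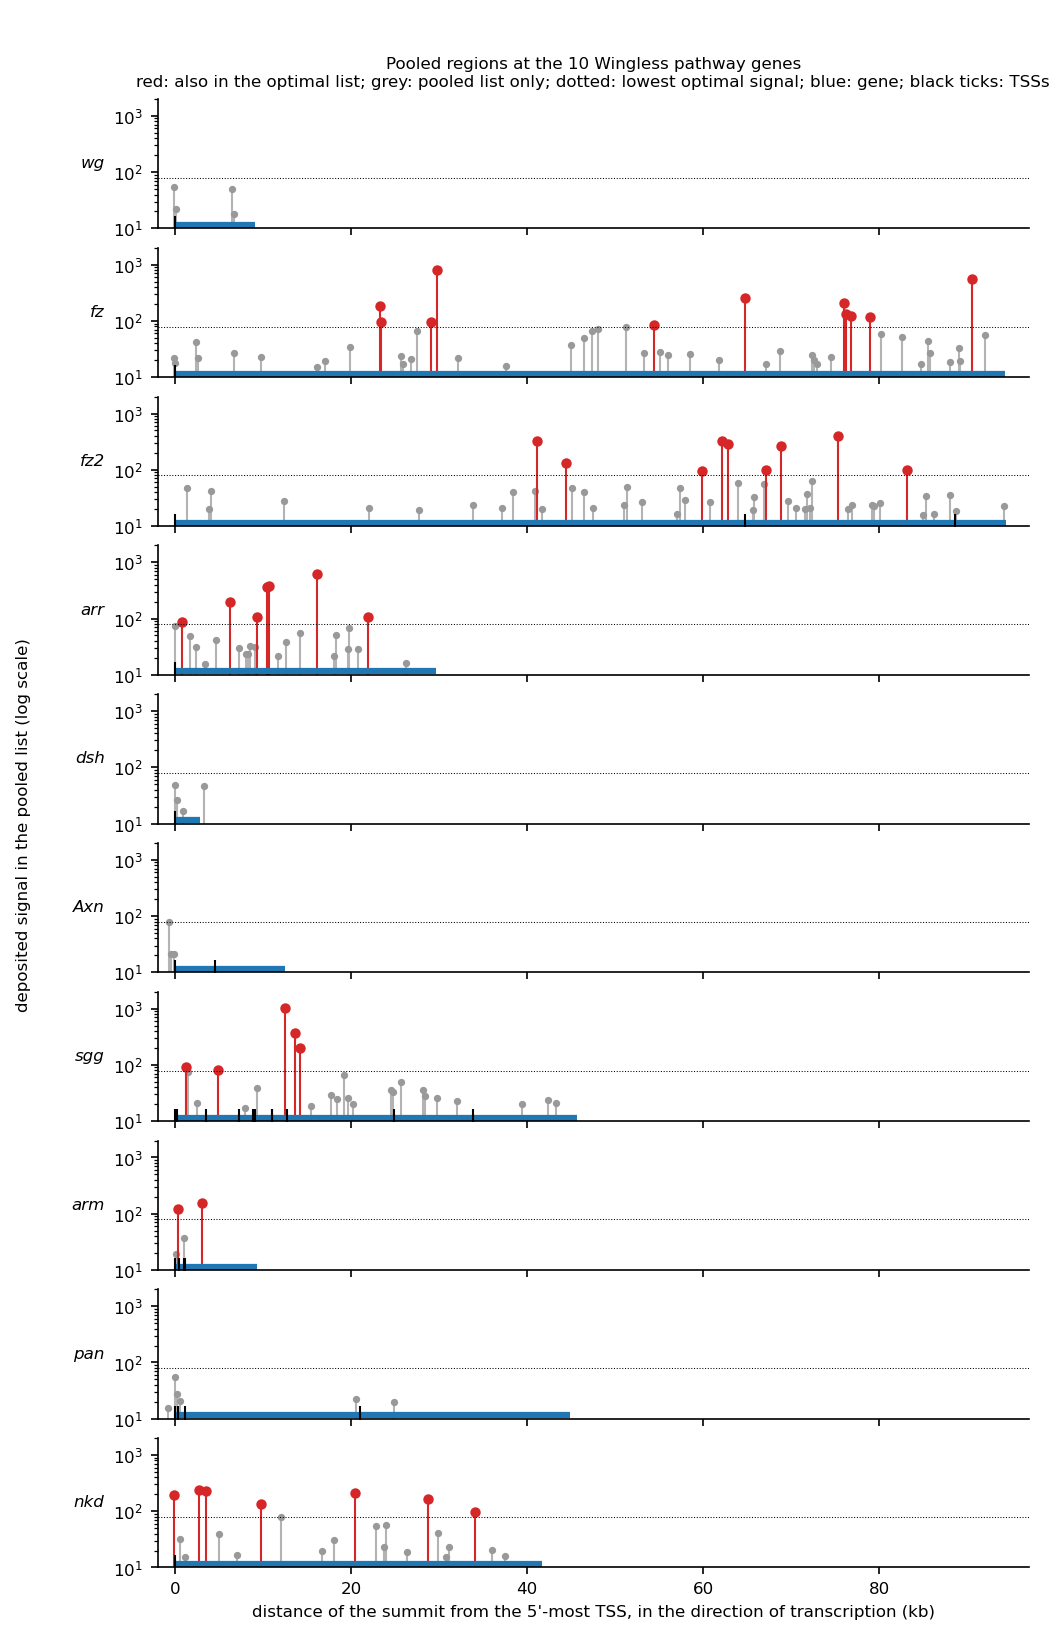
Pooled regions at each of the 10 genes, by distance of the summit from the first TSS in kb along the direction of transcription (horizontal axis) and deposited signal (vertical axis, log scale). Red stems are regions that are also in the optimal list, grey stems are in the pooled list only, the dotted line is the lowest optimal signal (79.3), the blue bar is the gene and black ticks are its TSSs. The stems of wg, dsh, Axn and pan all end below the dotted line, and the tallest red stem is that of sgg, at 12.5 kb.

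The 4 genes with no optimal region had weak pooled regions at their promoters. The pooled list includes background, so these regions may not mark binding. At wg the strongest was 153 bp upstream of the TSS (chr2L:7306791-7307220, pooled rank 9996, signal 53.4), with rank 7554 in replicate 1 and 14459 in replicate 3. A further wg region, in an intron 6460 bp from the TSS (chr2L:7313404-7313833, signal 50.7), ranked 14510 in replicate 1 and 9440 in replicate 3, so the replicates put the wg regions in opposite order. At pan the strongest was 12 bp from a TSS (chr4:69099-69528, pooled rank 9686, signal 55.3), with ranks of 6410 in replicate 1 and 20230 in replicate 3. At dsh the strongest was 20 bp from the TSS (chrX:11355646-11356075, pooled rank 11132, signal 47.7), with ranks of 12514 in replicate 1 and 12054 in replicate 3. In replicate 3, none of these lay among the 6835 highest signals. The strongest region counted for Axn (chr3R:30021954-30022383, signal 78.5) had pooled rank 6906, just below the lowest optimal signal of 79.3. It ranked 4780 in replicate 1 and 18469 in replicate 3, and it lay 52 bp from the TSS of Mgat2 and 673 bp upstream of that of Axn. Values just above the limit were those of the sgg region at rank 6762 (signal 80.1), and values just below it also included an nkd region (signal 78.8) and an fz region (signal 77.1).

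Optimal regions were found near all 4 of these genes, outside the window of 1 kb. The nearest to wg lay 3.89 kb past its end in intergenic sequence (chr2L:7320007-7320287, rank 1283, signal 302) and ranked 791 in replicate 1 and 1827 in replicate 3. For dsh it was 4.32 kb upstream in an intron of CG1737 (chrX:11351381-11351698, rank 355), with ranks of 646 in replicate 1 and 228 in replicate 3. For Axn it was 1.71 kb upstream in an intron of Mgat2 (rank 5499), and for pan 2.1 kb upstream at the promoter of the ribosomal protein gene RpS3A (rank 4063, 14 bp from its TSS). The wg region is the only one of these outside other genes and their promoters. On the other side of pan the nearest region was 311 kb away. The gene lies on chromosome 4, which held 20 optimal regions and where 17 of 80 protein-coding genes (21.2%) were bound.

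Both replicates gave most of the 41 regions among their strongest. The authors thresholded the optimal list on reproducibility between these replicates, so agreement is partly built into the choice of regions. The list holds exactly the 6835 highest pooled signals, so a region's place in it does not by itself show agreement between replicates. A region in the 6835 highest signals of both replicates overlapped 32 of the 41 (78.0%), and 80.1% of all optimal regions. Of the other 9, the top-ranked list of replicate 1 alone matched 3 and that of replicate 3 alone matched 6. An optimal region matched in both top-ranked lists was found at 6 of the 10 genes (60.0%), and at 28.7% of all protein-coding genes. Counted in each replicate's top-ranked list by itself, 8 of the 10 genes were bound in replicate 1 and 6 in replicate 3, where the shares of all genes were 33.4% and 34.5%. The 2 genes added in replicate 1 were pan and Axn, each with 1 region, and the same 6 genes as in the optimal list were bound in both. Spearman's rho of the replicate signals was 0.816 over the 41 regions and 0.779 over 6712 optimal regions, where all points share the same pair of libraries. Ranks differed by at most 2-fold between replicates for 33 of the 41, and 26 ranked higher in replicate 1. For these counts no share over all optimal regions is given. The distance between the replicates' summits had a median of 31 bp, against 30 bp over all optimal regions. It was no more than 50 bp for 28 of the 41, against 69.7% of all optimal regions. Overlapping optimal regions share 1 replicate value where a replicate called a single region across both, which touches 3 pairs.

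**Figure D3:**
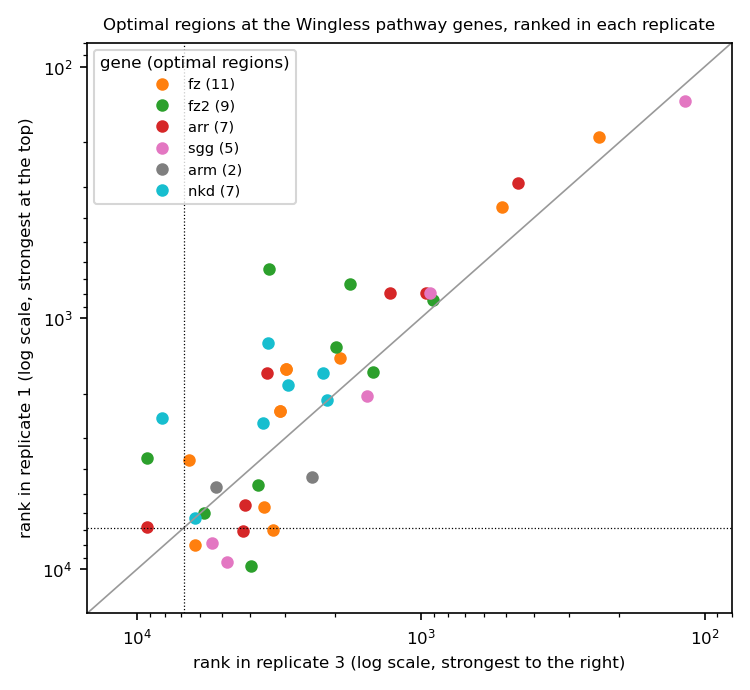
Rank of each of the 41 optimal regions in replicate 1 (vertical axis) and replicate 3 (horizontal axis), both on log scales with the strongest at the top and right, coloured by gene. The diagonal marks equal ranks and the dotted lines rank 6835. The sgg region at ranks 137 and 117 lies at the upper right, and the fz2 point farthest above the diagonal is the region at ranks 639 and 3433.

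The regions lay inside introns more than the optimal list as a whole did. Introns held 37 of the 41 (90.2%), against 40.3% of all optimal regions, and 4 (9.76%) had a protein-coding TSS no farther than 500 bp away, against 39.1%. These 4 were the sgg region at rank 118, the nkd region at rank 2374, the arm region at rank 4301 and the arr region at the TSS of CG43192. The median distance to the nearest protein-coding TSS was 4828 bp, against 1096 bp over the list, and 19 (46.3%) were farther than 5 kb from one, against 25% of all optimal regions. Most of the 10 are long genes with long introns, and regions were counted because they lay in them, so this share is tied to that choice. None was in coding sequence. In strength the 41 regions spread over the whole list, with a median rank of 2609, against 3418 for all optimal regions, and 23 were among its 3417 strongest.

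Summits at these genes were AT-rich, as in the list as a whole. The GC content within 50 bp of the summit averaged 33.8% ± 6.27 (SD across 41 regions), and 300 bp to either side it averaged 46.8% ± 6.29. Over all optimal regions the values were 34.4% at the summit and 44.7% at the sides. The summit had the lower GC content in 36 of the 41 (87.8%), against 80.2% of all optimal regions. The nkd sequence at rank 3010 shown above, with 22.8% GC at the summit, had 52.5% in its flanks. At the other end of the range, an fz region at rank 4436 had 53.5% at the summit and 49.5% in its flanks. A run of 8 or more A or T was present in 33 of the 41 summit windows (80.5%), against 75.3% of all optimal windows. In the windows 300 bp to either side the shares were 42.7% and 45.8%. The longest run in the sequences printed above is that of fz2 at rank 1192, with 27 bases. The strongest pooled regions of the 4 genes that were not bound had more GC at the summit, with 62.4% at wg, 55.4% at both Axn and dsh and 46.5% at pan. All 4 were promoter regions, and weak pooled promoter regions averaged 41.4% ± 10.3 (SD, 5697 regions), against 35.7% ± 9.39 for optimal promoter regions (SD, 2673 regions).

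**Figure D4:**
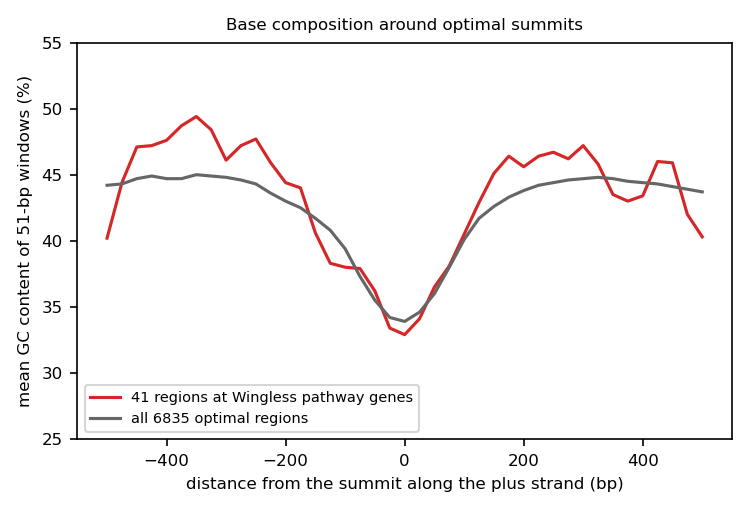
Mean GC content of 51-bp windows (vertical axis, %) by distance from the summit in bp along the plus strand (horizontal axis), for the 41 regions at Wingless pathway genes (red) and all 6835 optimal regions (grey). Both lines fall to a minimum at the summit, with 32.9% for the 41 regions and 33.9% for all.

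Few of the summit windows held a searched motif. No motif specific to Eyeless was among the 7 searched. The TCF core CTTTGAT, the site of Pangolin, was searched on both strands and present in 2 of the 41 windows (4.88%), against 2.08% of all optimal windows. These were the windows of sgg at rank 118 (bases 8 to 14 of the line shown above) and fz2 at rank 1192 (bases 64 to 70), where the plus strand reads atcaaag in both. The TCF helper site (GCCGCCA or GCCGCCG) was in 0 of 41, against 0.863% of all. The GAGA element (GAGAG) was in 3, or 7.32%, against 9.6%. The AP-1 site (TGANTCA) was in 2, against 2.69%, and the homeodomain core (TAATTA) in 2, against 8.79%. The promoter element DRE (TATCGATA) and the E-box (CACGTG) were in 0 of 41, against 1.57% and 0.732%. No motif was found in 33 of the 41 windows, a count that was not made over all optimal windows. Each motif was in at most 9.6% of those, so few matches are not particular to the 41. A match is a description of letters, not of a protein bound there.

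Counts for other genes of the pathway are given beside those of the 10, from a list drawn from general knowledge with the earlier results in view. Of 39 symbols 38 matched a gene, and 30 of these (78.9%) were bound, against 34.1% of all protein-coding genes. They held 76 optimal regions, and the median length of the matched genes was 8.68 kb, where 46.6% of all genes from 5000 to 10000 bp were bound. Some best regions lay at another gene's promoter, as for Apc (at WASp, 10170 bp from its own TSS), kto (at Papss, 2141 bp) and boca (at Rpe, 1074 bp). Those of wls, slmb, Tnks and mts were nearest another gene's TSS but also within 500 bp of their own. At kto, boca, wls, Tnks and mts this was the only optimal region. Others lay at their own, as for Apc2 (146 bp from its TSS) and CkIalpha (70 bp). The best-ranked was gish, a casein kinase gene, with a promoter region at rank 14. It was followed by gro, which encodes the corepressor Groucho, with a region at rank 157, 143 bp from its TSS, that ranked 222 in replicate 1 and 132 in replicate 3. The glypican gene dlp had 11 regions in 39009 bp, led by one in an intron at rank 873 (replicate ranks 537 and 1371). The phosphatase subunit gene wdb (rank 880), the Ryk-type receptor gene drl (rank 952) and the ligand gene Wnt10 (rank 1152) came next, each with an intronic region. The 8 genes not bound were fz4, Wnt5, otk2, trbd, lgs, pygo, por and wntD. Neither por, which encodes the acyltransferase Porcupine that modifies Wnt ligands, nor the ligand gene wntD had a pooled region.

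Of 18 genes known as Wingless targets in one tissue or another, a list drawn up in the same way, 9 (50%) were bound, with 28 optimal regions, against 34.1% of all protein-coding genes. The median length of the list was 10.4 kb, and of all genes from 10000 to 20000 bp 55.4% were bound, close to the share of the list. The best-ranked was stg, which encodes the Cdc25 phosphatase String, with rank 222 at a TSS of CG45544, 508 bp from its own. Myc, the growth regulator gene, had 5 regions, of which the strongest, in an intron, had rank 310 (replicate ranks 477 and 231). The gene of the BMP ligand, dpp, had 1 region, in an intron, at rank 723, with ranks of 1183 in replicate 1 and 470 in replicate 3. The transcription factor genes bi (rank 1137), hth (rank 1264) and Ubx (rank 3548) followed. The transcription factor genes slp1, ac and sc had no pooled region. Length moved with the share bound, as described above, and its part in the counts of both lists was not tested.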

How the data were processed

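ChIP-seq region lists of 2 biological replicates (1 and 3) in the dm6 build were used, and depth cannot be read from them. Per the file headers and listings, the authors called regions on each replicate and on the pool against a control alignment, which was not analysed here, and thresholded them by irreproducible discovery rate (IDR) into the optimal list. Caller, aligner and IDR limit were not given in the sources used here. The deposited signal is the authors' strength value on an unstated scale, and it only ranked regions within a list. The deposited −log10 q-value was at its highest value in all optimal regions (100%) and was not used to rank. The summit is the deposited offset from the region start, another value per the file headers. The lists of the pool and of replicate 1 held exactly 30000 regions, that of replicate 3 27637, so the lists of exactly 30000 may be truncated.

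Gene models were Ensembl release 115 (BDGP 6.54) and sequence was Release 6 of the genome. A replicate's value for a region is the strongest region overlapping it by 1 bp or more, and its top-ranked list is its 6835 highest signals. Summit classes were, in order, within 500 bp of a protein-coding TSS, exon classes, intron and intergenic. Introns are numbered in the transcript with the longest coding sequence. The 7 motifs were searched within 50 bp of summits. Python 3.11.15, numpy 2.4.6, pandas 2.3.3, scipy 1.17.1 and matplotlib 3.10.9 were used, and assignment, overlap and motif search were tested on simulated data. The 10 genes and both other lists were chosen with earlier results of these data known. Named genes were the 10, and in each other list the 6 with the best rank and those with no pooled region. Other genes named from the pathway list, among them Wnt4 and Wnt6, were added after their values were seen. Alternatives were gene windows, the 3417 strongest regions, single replicates, overlap, TSS and motif windows. Regions are not replicate samples.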

Additional observations from a re-analysis of the deposited data

How the results depend on the processing

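With gene windows of 5 kb, 10 of the 10 genes were bound, against 6 with 1 kb, while 55.3% of all protein-coding genes were. With 0 kb it was 6, with 40 regions, and 14.9% of all genes. Leaving out a replicate, the genes bound ranged from 6 to 8, and the regions were 39 in either case. The 3417 strongest optimal regions held 23 of the 41, at the same number of genes (6), and 21.2% of all genes had one. Within 1000 bp of a TSS there were 8 of the 41 regions, against 4 within 500 bp and 3 within 250 bp. Overlap by 50% of both lengths left 24 regions, against 32, in both top-ranked lists. Merging overlapping regions, chosen after seeing the data, left 38. The TCF core was in 3 windows, against 2, within 100 bp. For the alternative TSS, overlap and motif settings no share over all optimal regions is given, so these counts show no trait of the 41. Leaving out a replicate, best ranks ranged from 117 to 137 at sgg, 191 to 235 at fz, 290 to 456 at arr, 639 to 907 at fz2, 1256 to 2149 at nkd and 2423 to 4296 at arm. The count of bound genes rests on the window, and pan and Axn on replicate 1. No paired analysis was possible because there is 1 group and no test.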

Other observations

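The wg gene lies in a cluster of Wnt genes on 2L, and the other genes of that cluster, looked at after their values were seen, each had an optimal region. Over all protein-coding genes the share was 34.1%, with 55.4% from 10000 to 20000 bp and 60.5% from 20000 to 40000 bp. Wnt6 (18829 bp) and Wnt10 (14150 bp) fall in the first of these length groups and Wnt4 (21753 bp) in the second. Wnt4 had 2, the better at rank 3653 in an intron (chr2L:7261903-7262332), with ranks of 3726 in replicate 1 and 3156 in replicate 3. Wnt6 had 2, the better at rank 3462, 472 bp from its TSS (chr2L:7333027-7333456), with ranks of 3196 and 4638. The region of Wnt10 at rank 1152 lay 12970 bp from its TSS (chr2L:7376209-7376498), and the TSS nearest to it was that of ninaC.

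Some regions outside the optimal list were among the 6835 highest signals of 1 replicate alone. An nkd region that overlapped no optimal region (chr3L:19033083-19033512) ranked 4568 in replicate 1, while in replicate 3 the matching region ranked 17119. In replicate 3 an sgg region (chrX:2652848-2653243) ranked 6162, with rank 14080 in replicate 1, and an fz region (chr3L:14321425-14321820) ranked 6527, with rank 12458.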
